A study of Mus musculus with 6 samples.

Results

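Cells that respond to lipopolysaccharide (LPS) also express proteins that switch the response off, and 9 such genes were followed here in microglial cells with and without overexpression of PGC-1α. They were Tnfaip3, Tnip1, Irak3, Sigirr, Zfp36, Zfp36l1, Zfp36l2, Zc3h12a and Rc3h1. Each gene was found on the array by matching the transcript accession of its probes to the RefSeq gene table, which named 33767 of 56605 probes and 23462 genes in all. The 9 genes had 13 probes: 3 for Irak3, 2 each for Tnip1 and Zfp36l1, and 1 for each of the other 6 genes. All 13 were well above background on all 6 arrays, and none was saturated.

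The samples were 6 arrays of RNA from BV2, an immortalised mouse microglial cell line, and all cells had received LPS, the bacterial cell wall component that activates Toll-like receptor 4. No array of unstimulated cells was analysed here, so neither group gives a resting level. The dose in the cell culture methods was 500 ng/ml for 6 h, but those methods do not name the arrays. The 3 control arrays came from cells without PGC-1α overexpression and the 3 others from cells labelled as overexpressing it. PGC-1α, encoded by Ppargc1a, is a transcriptional coactivator known for its role in mitochondrial biogenesis. Its coding sequence was delivered by a lentivirus with a ubiquitin promoter, and infected cells were selected with puromycin. The methods mention a negative-control lentivirus, but the labels do not say whether the control arrays carried it. Replicates 1 and 2 of both groups shared 1 slide and replicate 3 of both groups shared another. Nothing states that the replicates were separate cultures, so each p-value measures the spread between these samples, which may be technical.

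Background on the genes is as follows. Engaged Toll-like and interleukin-1 receptors recruit MyD88 and the IRAK kinases, and ubiquitin chains built by TRAF6 then carry the signal to NF-κB. A20 (Tnfaip3) edits these chains with its partner ABIN-1 (Tnip1), while IRAK-M (Irak3) and the receptor-like protein SIGIRR hold back the first steps at the receptor. Tristetraprolin (Zfp36) and its relatives Zfp36l1 and Zfp36l2 bind AU-rich elements of cytokine mRNAs and recruit deadenylases. Regnase-1 (Zc3h12a) and roquin-1 (Rc3h1) recognise stem-loops in many of the same mRNAs and bring about their decay. Several of these genes are themselves induced by NF-κB, which makes them feedback inhibitors.

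The promoters of Tnfaip3 and Tnip1 are printed because they were the windows of the 9 genes that held a match to the NF-κB consensus motif. Both are the 250 bases before a RefSeq transcription start (GRCm38.p6), 5′ to 3′ on the strand of the gene, with the matches in capitals. The Tnfaip3 window lies at chr10:19015411-19015660 on the minus strand and the Tnip1 window at chr11:54962941-54963190, also on the minus strand.
Tnfaip3: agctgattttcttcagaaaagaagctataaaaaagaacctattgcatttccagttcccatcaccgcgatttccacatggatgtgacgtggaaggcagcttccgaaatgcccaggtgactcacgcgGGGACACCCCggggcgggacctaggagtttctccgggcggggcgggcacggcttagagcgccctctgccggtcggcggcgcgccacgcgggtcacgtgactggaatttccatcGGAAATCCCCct
Tnip1: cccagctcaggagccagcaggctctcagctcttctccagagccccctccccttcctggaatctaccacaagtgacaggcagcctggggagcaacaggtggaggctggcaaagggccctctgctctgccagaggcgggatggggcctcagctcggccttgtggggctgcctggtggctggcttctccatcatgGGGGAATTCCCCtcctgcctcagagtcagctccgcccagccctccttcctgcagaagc
In the Tnfaip3 window the matches were GGGACACCCC and GGAAATCCCC, with their first bases 125 and 12 bases before the start. In the Tnip1 window 3 overlapping matches formed 1 stretch that began 58 bases before the start. The motif was searched on both strands and was found in 1281 of 32851 promoter windows of that length (3.90%). For 7 of the 9 brake genes the table gave 9 windows, since Tnfaip3 and Irak3 each have a pair of starts, and the motif was in 2 of these. The windows without a match were the other of Tnfaip3, both of Irak3, and those of Zfp36, Zfp36l1, Zc3h12a and Rc3h1. No window was available for Sigirr or Zfp36l2, so these genes were not searched. The AP-1 motif TGANTCA was found in 2217 of the 32851 windows (6.75%). Among the 9 genes it was in the same Tnfaip3 window and in those of Zfp36l1 and Rc3h1. These are letter matches and not measured binding.

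Some facts of the whole data set bear on every value below. Between 41122 and 45165 of 59305 spots were well above background on an array. The 75th percentile of the intensity, by which each array was scaled, was 1617 to 1893 in control and 856 to 1268 with PGC-1α, so that every PGC-1α array was dimmer. Scaled signals below are log2 intensities minus the log2 of that percentile. On this scale the median log2 fold change (PGC-1α overexpression minus control) over the 39295 tested probes was 0.25, and 65.9% of the 21018 probes past the threshold were higher. After quantile normalization the median was 0.05 and 52.6% of 16942 were higher. The threshold was an adjusted p of 0.05 in limma.

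The 2 Ppargc1a probes were close to background and were not tested. On A_51_P279038 the scaled signal was -6.21, -6.37 and -7.71 in control and -5.70, -5.28 and -5.90 in the PGC-1α group, with 2 of 3 arrays of each group well above background. On A_55_P2745394 it was -6.84, -6.33 and -7.10 in control and -7.00, -6.11 and -6.40 in the PGC-1α group. The groups did not overlap on the first probe (two-sided exact permutation p = 0.1) and overlapped on the other (exact permutation p = 0.5). For 3 arrays against 3, 0.1 is the smallest p this test can give. Whether either probe lies in the cloned coding sequence was not examined, so these values do not test the labels.

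Of 12 microglial marker genes, 10 were well above background on all 6 arrays, while Cx3cr1 and P2ry12 were on none. The summed scaled signal of the list (linear) was 87.6 to 90.5 in control and 126 to 149 in the PGC-1α group. It was also higher in every PGC-1α array for fibroblast markers (15.4 to 16.4 against 26.6 to 32.0), neuronal markers (22.0 to 27.9 against 35.2 to 48.4) and astrocyte markers (0.259 to 0.314 against 0.442 to 0.577). Oligodendrocyte markers ran from 1.052 to 1.175 in control and from 1.185 to 1.345 in the PGC-1α group. Here too every PGC-1α array was higher, by a narrow gap. Of 6 genes in each of these lists, 4 fibroblast, 2 neuronal, 3 astrocyte and 4 oligodendrocyte genes were well above background on all arrays. Lum, Syt1, Gad1, Slc17a7 and Slc1a3 were on none. The microglial, fibroblast and neuronal sums depended on the scaling and on a few bright genes. In the fits below, each marker gene was read at its brightest tested probe. Of 10 tested microglial markers 5 were higher and 1 lower, but 0 were higher and 1 lower after quantile normalization, and Tmem119 fell by 2.68 (limma adjusted p = 7.9e-05). Snap25, the brightest neuronal marker, gave 0.71 and then 0.08 after quantile normalization (limma adjusted p = 0.60). The dim neuronal marker Rbfox3 gave 1.14 and then 0.84 (limma adjusted p = 0.043), and Map2 passed in neither fit. Of 5 tested fibroblast markers 4 were higher and 1 lower, Pdgfra, which fell by 1.63, and after quantile normalization 3 were higher and 1 lower. Col1a1 gave 0.77 and then 0.22 (limma adjusted p = 0.14). Of 4 tested astrocyte markers 2 were higher in both fits, and of 5 tested oligodendrocyte markers 1 was. None of these was lower. The part of these lists in the results on the brake genes was not tested. All 6 arrays were of 1 cell line, BV2, so these sums give marker RNA and were not read as shares of other cell kinds. In bulk RNA, fewer cells of a kind and less RNA per cell cannot be told apart.

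Of the 9 brake genes, Tnfaip3, Tnip1 on both of its probes, and Sigirr fell, and no probe passed the test as higher. Of the 12 probes tested, 4 (33.3%) were lower past the threshold, beside 18.2% of all tested probes. None of the 12 was higher, beside 35.2% of all tested probes, and the other 8 did not pass. After quantile normalization 4 of the 12 were again lower and none was higher. Among all 39295 tested probes, 20.4% were then lower and 8910 were higher. Zc3h12a was left out of this count because 2 of its 3 control spots were marked as outliers. With marked spots kept it was lower as well, giving 5 of 13 probes (38.5%) beside 18.2% of all probes. Every PGC-1α array lay below every control array for 6 of the 11 tested probes with a value on all arrays (54.5%), beside 22.2% of all such probes. Of the 12 tested probes, 11 had a fold change below that of the median probe. With the slide as a block, 5 of the 12 were lower, with Zfp36 added (-0.39, limma adjusted p = 0.042), and 1 was higher, a Zfp36l1 probe (0.63, limma adjusted p = 0.0099). Among all probes that fit called 20.5% lower and 41.1% higher. Several of these probes share a gene, and the 9 genes are few, so the counts describe this set only. The genes were also chosen with earlier results of these data known, so the shares are not an unbiased comparison with all probes.

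**Figure D1:**
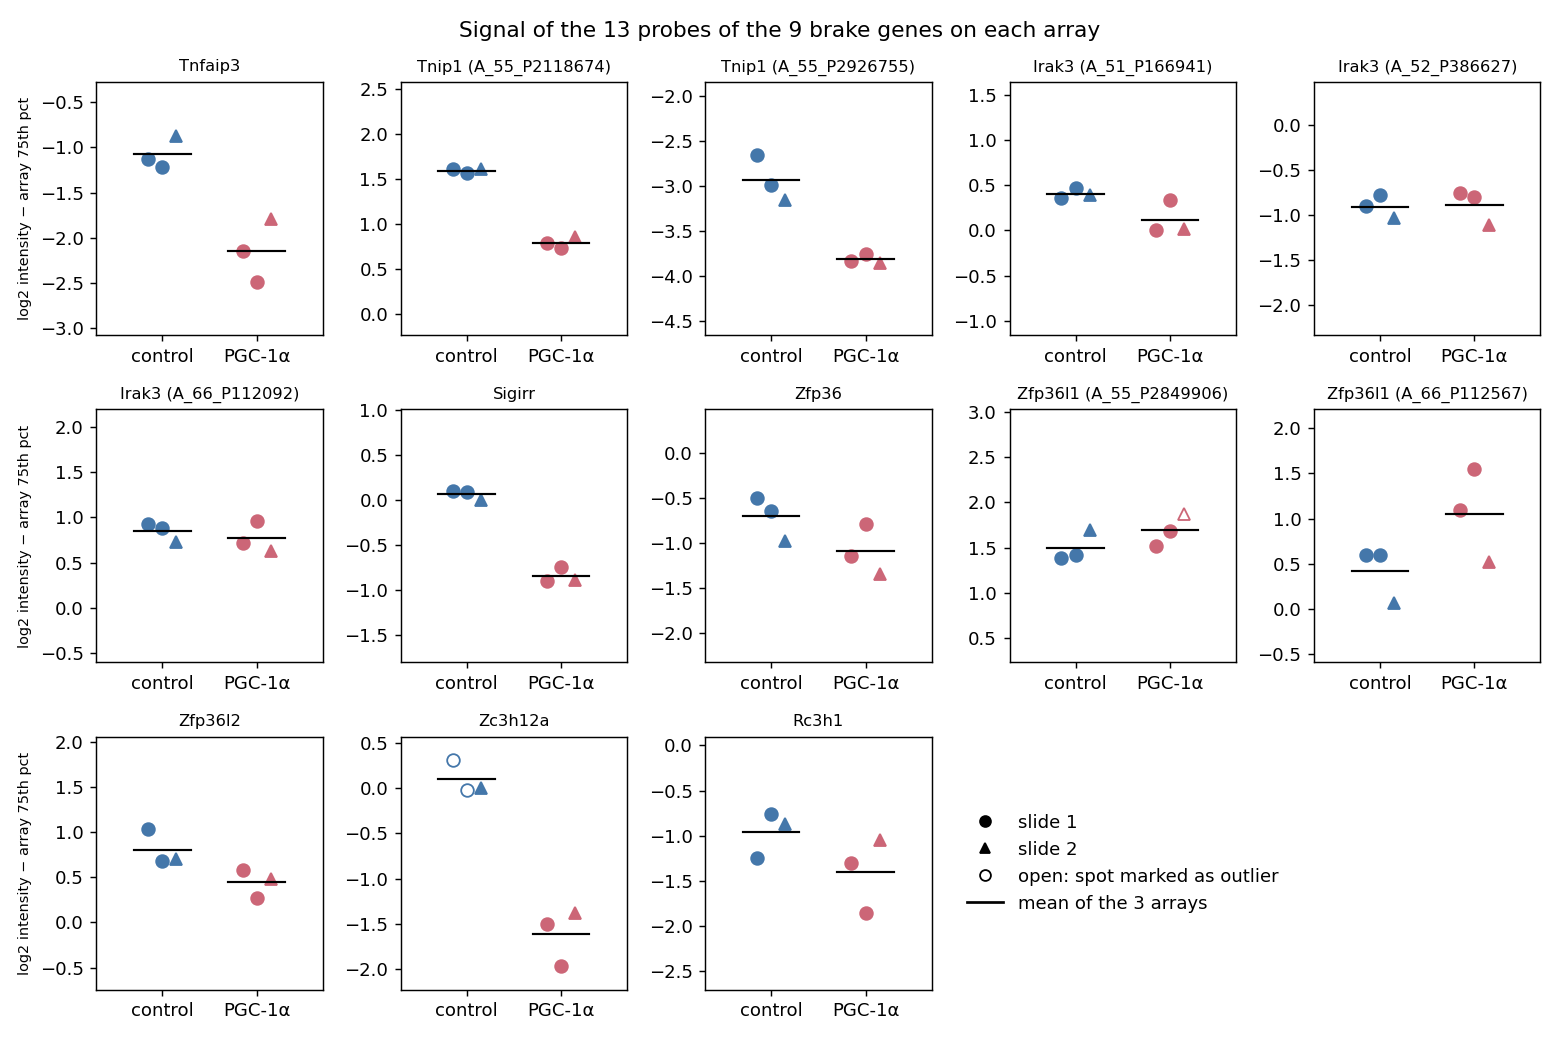
Scaled signal (log2 intensity minus the array's 75th percentile) of the 13 probes on each array, with control in blue, PGC-1α overexpression in red, circles for slide 1 and triangles for slide 2. Lines are means of the 3 arrays and open symbols are spots marked as outliers, which the main test left out. Zc3h12a was not in the main test, and the fit given for it keeps the marked spots. The groups stand apart for Tnfaip3, both Tnip1 probes, Sigirr and Zc3h12a, and overlap or nearly touch for the others.

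Tnfaip3 encodes A20, the ubiquitin-editing enzyme that ends NF-κB signalling from several receptors. In control its scaled signal read -1.13, -1.21 and -0.87, and with PGC-1α it read -2.15, -2.49 and -1.79. All 3 PGC-1α arrays lay below all 3 control arrays, and on both sides the slide 2 array was the brightest. The means were -1.07 ± 0.18 and -2.14 ± 0.35 (SD, n = 3), and the log2 fold change was -1.07 (SE 0.20, 95% interval -1.53 to -0.61, limma adjusted p = 0.0042). This is a 2.10-fold lower level, or a log2 difference of -1.32 relative to the median probe. In unscaled intensity the spot measured 738, 702 and 1034 in control against 261, 152 and 367. Within slide 1 the log2 fold change was -1.15 and within slide 2 it was -0.92.

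Tnip1, whose product ABIN-1 binds ubiquitin chains and brings A20 to its substrates, fell on both of its probes. The probe for NM_001199275 (A_55_P2118674) read 1.61, 1.57 and 1.60 in control and 0.79, 0.73 and 0.86 with PGC-1α. The arrays of each group lay close together here, and the gap between groups was many times their spread. The log2 fold change was -0.80 (SE 0.12, 95% interval -1.08 to -0.52, limma adjusted p = 0.0019), or 1.74-fold lower. The dimmer probe for NM_001271456 (A_55_P2926755) read -2.66, -2.99 and -3.16 in control and -3.83, -3.75 and -3.85 with PGC-1α. Its groups did not overlap either, with a log2 fold change of -0.87 (SE 0.16, limma adjusted p = 0.0038). Both probes were lower within each slide (-0.83 and -0.75 for the first, -0.96 and -0.69 for the other). On the dimmer probe the call did not hold with a model-based background correction (normexp) and the 75th percentile, where the log2 fold change was -0.35 (limma adjusted p = 0.056). It held with normexp and quantile normalization (-0.59, limma adjusted p = 0.0066). Tnfaip3 and Tnip1 are the genes whose promoter windows, printed above, held the NF-κB letters, and no test was made of that overlap. Sigirr, which also fell, had no window to search, and the window of Zc3h12a held no match.

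Of the receptor-level brakes, Sigirr passed the test and Irak3 did not. Sigirr, an orphan member of the interleukin-1 receptor family that competes for receptor and adaptor contacts, was lower with PGC-1α. Its scaled signal was 0.10, 0.09 and 0.00 in control and -0.90, -0.75 and -0.88 with PGC-1α. Each group spanned little and the groups were well separated. The means were 0.06 ± 0.06 and -0.84 ± 0.09 (SD, n = 3), with a log2 fold change of -0.91 (SE 0.13, 95% interval -1.20 to -0.62, limma adjusted p = 0.0013), or 1.88-fold lower. The fold change was nearly the same on slide 1 (-0.92) and slide 2 (-0.88).

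Irak3 encodes IRAK-M, a pseudokinase of the IRAK family that is known for its part in endotoxin tolerance. None of its 3 probes, all assigned to NM_028679, passed the threshold. The probe A_51_P166941 read 0.36, 0.47 and 0.40 in control and 0.01, 0.33 and 0.01 with PGC-1α. Its groups did not overlap, though the second PGC-1α array came close to the control range, and the log2 fold change was -0.29 (95% interval -0.62 to 0.04, limma adjusted p = 0.12). The difference passed without that array, the dimmest of the 6 (-0.40, limma adjusted p = 0.036). It also passed with all arrays when they were scaled to the median (-0.40, limma adjusted p = 0.049) or weighted (-0.42, limma adjusted p = 0.0019). The other 2 probes overlapped fully between groups. A_52_P386627 had a log2 fold change of 0.02 (95% interval -0.33 to 0.37) and A_66_P112092 one of -0.08 (95% interval -0.41 to 0.26). The 3 probes did not give a single answer for this gene, and a difference of about the size seen for Sigirr lay outside all 3 intervals. The difference between Sigirr and Irak3 itself was not tested.

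Among the 3 tristetraprolin family genes, no probe passed the threshold. Zfp36, the founding member, read -0.50, -0.64 and -0.97 in control and -1.14, -0.79 and -1.35 with PGC-1α. The control array of slide 2 lay below the second PGC-1α array, so the groups overlapped by that pair. The log2 fold change was -0.39 (SE 0.19, 95% interval -0.84 to 0.06, limma adjusted p = 0.12), and it was alike within the slides (-0.40 and -0.37). With the slide as a block the same difference passed (limma adjusted p = 0.042), and without the second PGC-1α array it was -0.54 (limma adjusted p = 0.045).

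Zfp36l2 read 1.04, 0.68 and 0.70 in control and 0.58, 0.27 and 0.48 with PGC-1α. Every PGC-1α array was below every control array, but the gap between the nearest of them was smaller than the spread within either group. The log2 fold change was -0.36 (SE 0.16, 95% interval -0.73 to 0.01, limma adjusted p = 0.088).

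Zfp36l1 was the family member with positive values, and its 2 probes (both NM_007564) differed in size. A_66_P112567 read 0.60, 0.60 and 0.07 in control and 1.09, 1.55 and 0.52 with PGC-1α. The slide 2 array was the lowest of each group, and the PGC-1α array of slide 2 lay within the control range. Its log2 fold change was 0.63 (SE 0.27, 95% interval 0.00 to 1.26, limma adjusted p = 0.082), with 0.72 on slide 1 and 0.46 on slide 2. With the slide as a block the adjusted p was 0.0099 in limma, with the replicate number as a block it was 0.014, with array weights it was 0.0063 (log2 fold change 0.58), and without the third PGC-1α array the log2 fold change was 0.90 (limma adjusted p = 0.017). The other probe, A_55_P2849906, read 1.38, 1.42 and 1.69 in control and 1.52 and 1.68 on the first 2 PGC-1α arrays. The spot of the third was marked as an outlier and left out. Its log2 fold change was 0.11 (95% interval -0.29 to 0.51), and the sign turned after quantile normalization (-0.09).

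Zc3h12a encodes Regnase-1, an endoribonuclease that cleaves the mRNAs of inflammatory cytokines. Its 1 probe could not enter the main test, because control replicates 1 and 2 had spots marked as outliers and only 1 control value was left. With the marked spots kept it read 0.31, -0.02 and 0.01 in control and -1.50, -1.97 and -1.38 with PGC-1α. The control spot of slide 2, which was not marked, lay within the range of the marked ones, and all PGC-1α arrays were far below all 3. In unscaled intensity the spots measured 2008, 1609 and 1901 against 409, 218 and 489. The log2 fold change was -1.72 (SE 0.19, 95% interval -2.16 to -1.28, limma adjusted p = 5.5e-04), or 3.29-fold lower. From slide 2 alone, where neither spot was marked, it was -1.38. It was the furthest from 0 among the 13 probes, in a fit that keeps marked spots. With each array left out in turn, marked spots kept, it ran from -1.84 to -1.54 and passed all 6 times.

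Rc3h1 encodes roquin-1, which acts on stem-loops like those Regnase-1 cleaves. It read -1.24, -0.76 and -0.87 in control and -1.31, -1.85 and -1.04 with PGC-1α. The groups overlapped, since the first control array lay below the third PGC-1α array. The log2 fold change was -0.44 (SE 0.23, 95% interval -0.98 to 0.09, limma adjusted p = 0.14). The slides gave unlike sizes, -0.58 on slide 1 and -0.17 on slide 2.

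**Figure D2:**
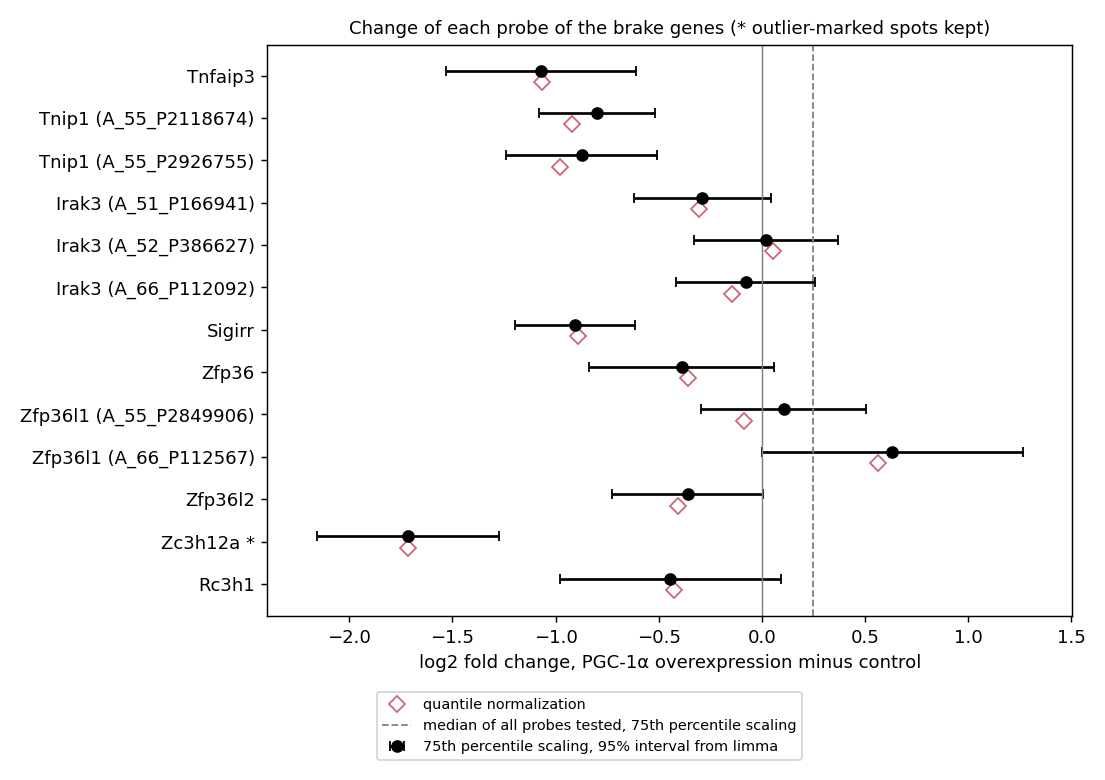
Log2 fold change (PGC-1α overexpression minus control) of each probe with its 95% interval from limma, beside the value after quantile normalization. Tnfaip3, Tnip1 and Sigirr lie between -1.07 and -0.80, Zc3h12a (outlier spots kept) lies at -1.72, and the intervals of the other probes reach 0, except that of Zfp36l1 A_66_P112567, which starts at 0.00 after rounding and whose adjusted p missed the threshold.

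The genes around the brakes were read from 5 lists, with each gene taken at its brightest tested probe. Over all 17172 genes so measured, 34.6% were higher and 18.4% lower past the threshold, and the median log2 fold change was 0.23. The medians of all 5 lists lay below that value, between -0.21 and 0.03. The lists were chosen with earlier results of these data known, so this is a description and not an unbiased comparison.

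Of 16 tested signalling partners and other brakes, 2 were higher, 2 were lower and 12 did not pass (median log2 fold change -0.04). Tnfaip8l2 (TIPE2), which restrains Toll-like receptor signalling, fell by 1.38 on the log2 scale (limma adjusted p = 5.7e-04). Otulin, the deubiquitinase for linear ubiquitin chains, fell by 0.79 (limma adjusted p = 0.0029). Tollip, an adaptor that binds IRAK1, rose by 0.77 (limma adjusted p = 0.0080). The mitochondrial NOD-like receptor Nlrx1 rose by 0.82 (limma adjusted p = 0.030).

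Of 19 tested signalling proteins that the brakes act on, 2 were higher, 3 were lower and 14 did not pass (median 0.01). Birc3 (cIAP2), a ubiquitin ligase at TNF receptors, fell by 1.42, the kinase gene Irak4 by 0.85 and the adaptor gene Traf2 by 0.77. Irak1, the kinase that IRAK-M holds at the receptor, rose by 0.48 (limma adjusted p = 0.025), with all 3 of its probes positive. After quantile normalization its value was 0.21 (limma adjusted p = 0.19), so that call rested on the scaling. Malt1, the paracaspase that cleaves A20 and Regnase-1 in lymphocytes, rose by 0.61 on its brightest probe, while its other probe gave -0.41.

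Of 11 tested RNA-binding regulators of cytokine mRNA, 4 were lower, none was higher and 7 did not pass (median -0.06). Arid5a, which protects Il6 mRNA from Regnase-1, read 1.03, 0.74 and 0.77 in control and -1.93, -1.97 and -1.76 with PGC-1α. It fell by 2.73 on the log2 scale (limma adjusted p = 3.9e-05), and its other probe gave -1.98. N4bp1, a ribonuclease related to Regnase-1, fell by 0.74 and the translational repressor gene Tia1 by 0.77, from 2 control arrays since a marked spot was left out. The Tia1 call was lost after quantile normalization (-0.76, limma adjusted p = 0.069).

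Of 28 tested genes of deadenylation, decapping and decay, 4 were higher, 5 were lower and 19 did not pass (median 0.03). Dcp2, the catalytic subunit of the decapping enzyme, rose by 1.23 on its brightest probe (limma adjusted p = 0.0010), although its other probe gave -0.16. Dcp1b, an activating subunit, fell by 1.52 (limma adjusted p = 2.9e-04). The decapping factor genes Patl1 and Ddx6 rose by 0.44 and 0.56, but Ddx6 gave 0.21 after quantile normalization (limma adjusted p = 0.39). Tob2 and Btg2, adaptors that recruit the deadenylase complex, fell by 0.66 and 0.63. The values of Ddx6 and Btg2 come from 2 arrays a group, since marked spots were left out.

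Of 24 tested mRNAs known as targets of these RNA-binding proteins, 5 were higher, 8 were lower and 11 did not pass (median -0.21). Ccl2, the monocyte chemokine gene, read 2.51, 2.53 and 2.44 in control and -0.11, -0.24 and 0.01 with PGC-1α, and it fell by 2.61 on the log2 scale. The immediate early gene Ier2 fell by 2.17 and the MAP kinase phosphatase gene Dusp1 by 1.84. The cyclooxygenase gene Ptgs2 rose by 1.69 from 2 PGC-1α arrays, since its spot on the second was marked as an outlier. Vegfa rose by 1.10 on its brightest probe but gave -0.60 on another of its 4 probes, and Il23a, a subunit of interleukin-23, rose by 0.76. Targets past the threshold lay in both directions, and the arrays measured RNA levels and not decay rates.

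**Figure D3:**
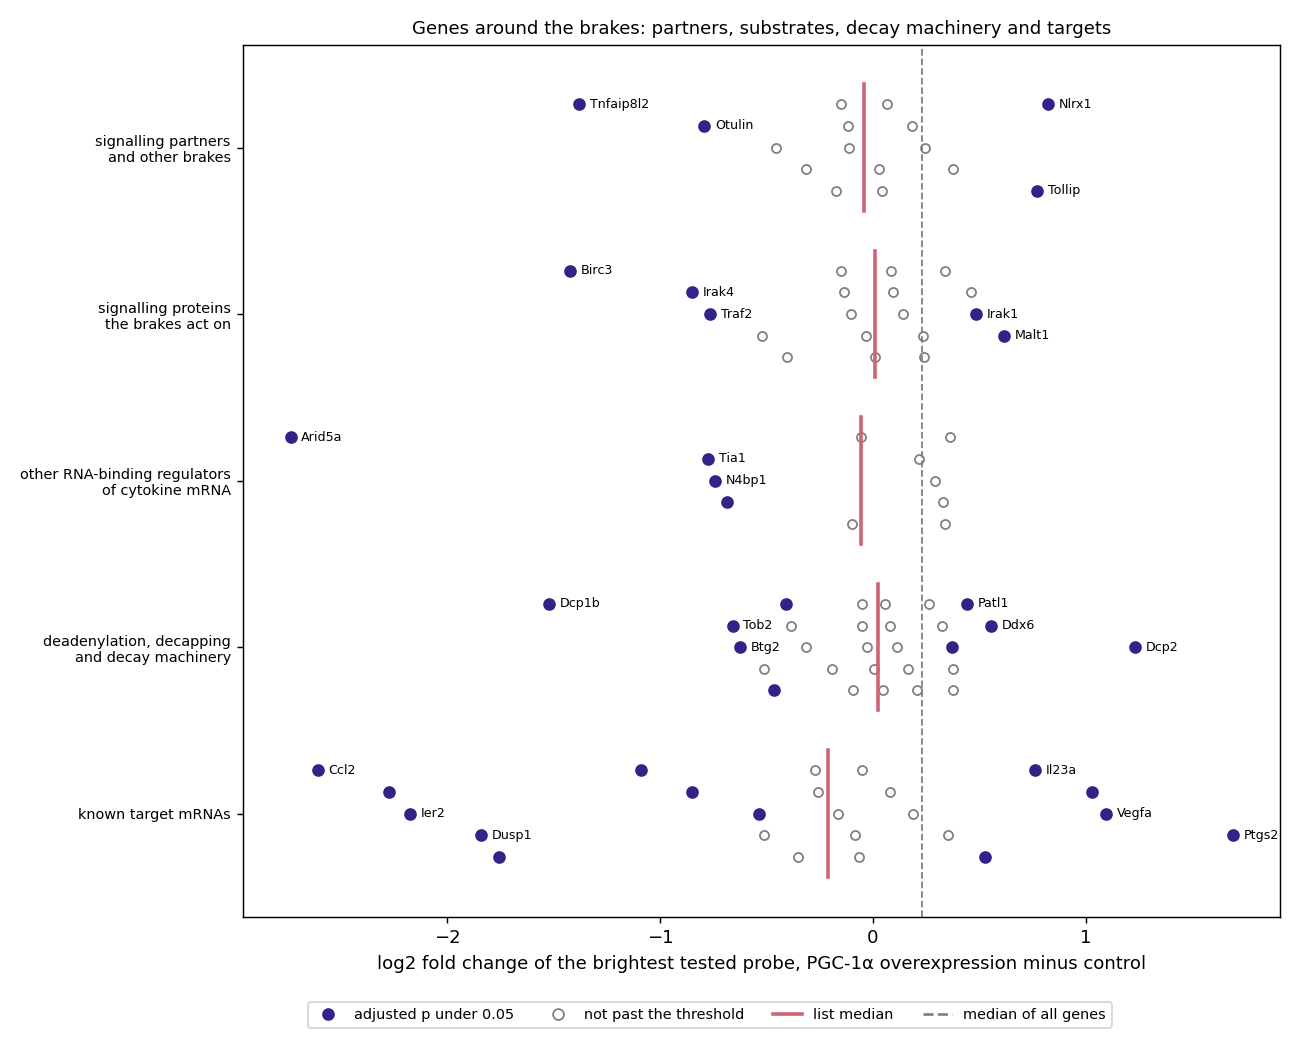
Log2 fold change of the brightest tested probe of each gene in the 5 lists, with filled points past an adjusted p of 0.05, list medians in red and the median of all genes dashed. All 5 list medians lie left of the dashed line at 0.23, and points past the threshold lie on both sides in every list except the other RNA-binding regulators.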

How the data were processed

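RNA of 6 samples was hybridised to 1-colour Agilent mouse arrays. The deposited scanner files, written by Feature Extraction 11.5.1.1, hold for each spot a processed intensity, from which the authors' scanner software had removed background. The authors also deposited a table of normalized log2 values, which was used as an alternative only. The array labels name Cy3 and the protocol Cy5; the files hold the green channel.

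From the log2 of the processed intensity, each array's own 75th percentile over non-control spots was subtracted. Outlier-marked spots were dropped and repeat spots of a probe averaged. Testing required 2 or more values in both groups and, in 1 group or both, a signal well above background on every one of its 3 arrays. All 39295 such probes entered 1 limma fit (lmFit and eBayes, two-sided, Benjamini-Hochberg, threshold 0.05) without covariates. Intervals are 95% and cover the spread between 3 arrays per group, whose number limits the precision.

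Probes were named by unversioned accession through the RefSeq table of GRCm38.p6. Since the array design names another build, no probe coordinates are given. The members and the gene lists were chosen with earlier results of these data known. Named list genes were, per list, up to 3 of the largest positive and 3 of the largest negative fold changes among genes past the threshold and well above background on all 6 arrays.

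The alternatives were quantile normalization, scaling to the array median, normexp (offset 50, on median spot and background signals) with either scaling, other filters, outlier spots kept, 1 value a gene, blocks for slide and for replicate number, array weights, trend and robust estimation, the log2 values of the authors, a fold limit, and each array left out. The leave-one-out fits of Zc3h12a and its quantile value with marked spots kept were chosen after seeing the data. Scripts were tested on simulated data. R 4.3.3, limma 3.58.1, Python 3.11.15, numpy 2.4.6, pandas 2.3.3 and matplotlib 3.10.9 were used.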

Additional observations from a re-analysis of the deposited data

How the results depend on the processing

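The fold changes of Tnfaip3 (-1.18 to -0.88), the first Tnip1 probe (-0.92 to -0.69) and Sigirr (-1.02 to -0.82) passed the threshold in all 15 settings with all arrays and all 6 times with an array left out. The second Tnip1 probe passed in 14 of 15 (normexp with the 75th percentile: -0.35, adjusted p = 0.056) and in all 6. Zc3h12a could be tested only with marked spots kept; its value after quantile normalization was then -1.71 (limma adjusted p = 8.1e-04). No called value changed sign.

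The count of brake probes lower was 7 with array weights, 1 with the fold limit (log2 fold change of 1 or more) and 4 to 6 with an array left out, the 6 without the second PGC-1α array. Over all probes, both directions together, 28929 passed with array weights, 6446 with the fold limit and 18514 without that array. The main setting had 21018. The count higher was 1 with the slide as a block, 1 with the replicate block, 1 with array weights and 0 to 1 with an array left out, the 1 without the third PGC-1α array. In each case the probe was Zfp36l1 A_66_P112567. Rc3h1 passed with array weights alone (-0.41, limma adjusted p = 0.016).

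Over all probes the count past the threshold, 21018 in the main setting, was 12970 for matched probes only, 9070 and 9278 with 1 value a gene (brightest or mean), since fewer features were tested, and 6446 with the fold limit. It rose to 28929 with array weights. With array weights the lists of partners, proteins acted on, RNA-binding regulators and decay genes held 9, 9, 8 and 16 genes past the threshold, and with the fold limit 1, 1, 1 and 2. The proteins acted on held 8 with the slide as a block and 8 with the mean of probes. The decay genes held 3 with no filter on dim probes and 4 to 7 with an array left out, below the main count of 9 each time: 4 without control replicate 2, control replicate 3 or overexpression replicate 1, 5 without overexpression replicate 3, and 6 without control replicate 1. The cause of these moves was not tested.

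The labels share replicate numbers. Over 37314 probes, deviations of same-numbered arrays correlated at -0.21, 0.00 and 0.59, so the numbers were not taken to pair the samples. The 0.59 was that of replicate 3, the pair on slide 2. On slide 1, control replicate 1 with PGC-1α replicate 2 gave 0.53, and control replicate 2 with PGC-1α replicate 1 gave 0.23. Whether the shared slide underlies these values was not tested. The replicate block gave 22815 probes past the threshold and the slide block 24216.

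All 13 brake probes were well above background on every array, whereas low signal left Ppargc1a untested. For the dimmer Tnip1 probe (A_55_P2926755) the result still depended on how background was handled. Its log2 fold change was -0.87 in the main setting and -0.35 with normexp and the 75th percentile. In that setting it missed the threshold (limma adjusted p = 0.056).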
